A study of Anopheles gambiae with 36 samples.

Results

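Some transcripts of the malaria mosquito ear were far more abundant in males than in females. They were selected on their mean and extreme normalised counts in the 17 male and 18 female libraries, by a single rule. A transcript was taken when its mean normalised count was at least 50 in males and at least 8 times the female mean, and when the lowest male library stood above the highest female library. The identifier AGAP005599 and the ranges AGAP006828 to AGAP006868, AGAP008444 to AGAP008460 and AGAP009868 to AGAP009880 were set aside, which removed 2 transcripts that met the rule. The rule found 55 transcripts of 54 genes among 15863 annotated transcripts of 13832 genes. A normalised count is an estimated read count divided by the library's size factor, a scaling for depth. The sex difference chose these transcripts, so it is described below and carries no test, while time of day and the opsin level within males were not part of the rule.

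Mosquitoes hear with the antenna. Its long flagellum vibrates in sound, and Johnston's organ in the second antennal segment turns these vibrations into nerve signals through chordotonal neurons, the stretch-sensitive neurons of insect ears. Males use it to find the wingbeat tone of females in swarms at dusk, and the male organ is larger and holds more neurons than the female organ. The study asked how gene expression in this organ differs between the sexes and over the day.

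The animals were Anopheles gambiae of the Kisumu strain, all kept in a cycle of 12 h light and 12 h dark with gradual dawn and dusk. Each library came from a pool of the second antennal segments of 35 mosquitoes of 1 sex, taken at zeitgeber time (ZT, hours after lights on) 0, 4, 8, 12, 16 or 20, with 3 libraries for each sex and time. ZT12 is the laboratory swarm time. The labels name no treatment or mutant, and the messenger RNA was amplified by PCR before sequencing. One male ZT12 library (replicate 3) had been discarded by the authors and is described separately, which left 17 male and 18 female libraries.

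Total estimated counts ran from 11074586 to 18254972 in male and from 9341518 to 17815883 in female libraries, and each library detected between 12136 and 13371 transcripts. PCR reads carried no molecular identifiers, so intervals given below cover counting error only. Opsins, the light receptors of the eye, took 1.39% to 13.7% of male and 9.37% to 45.6% of female counts. The paper counted them among the receptors expressed in the ear and cited hearing roles for such receptors in Drosophila. Orco, the co-receptor of odorant receptor neurons (AGAP002560), had normalised counts from 0 to 127 in males and from 0 to 291 in females. The 3 male libraries with the most opsin were ZT20 replicate 3, ZT16 replicate 2 and ZT4 replicate 3. Named markers of chordotonal neurons were not checked, because no source used here pairs their names with identifiers. None of the 54 genes had a name in the sources used here, so they are given by identifier alone and no role is stated for them.

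**Figure D1:**
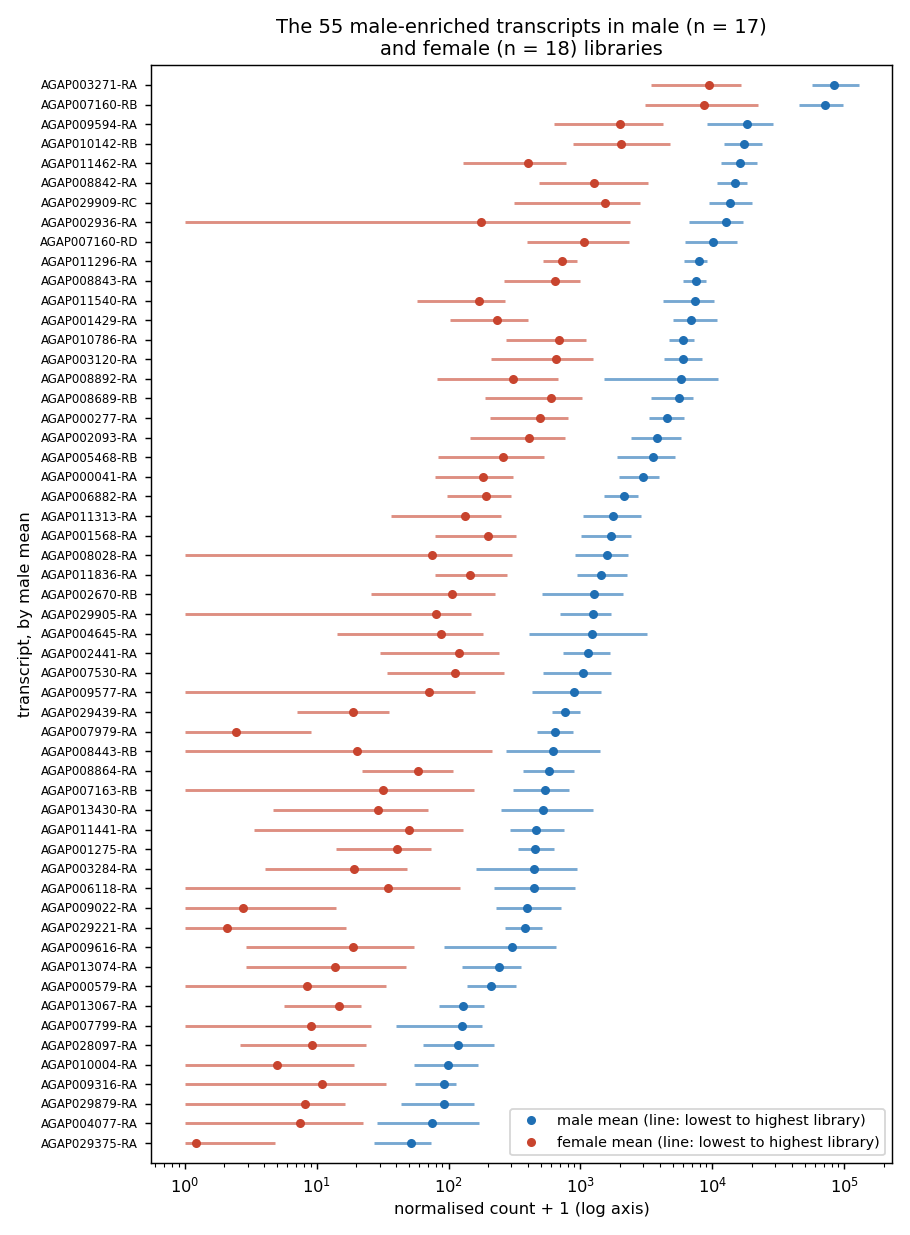
Mean (point) and lowest to highest library (line) of each of the 55 transcripts in 17 male and 18 female libraries, as normalised count + 1 on a log axis, ordered by male mean. Every male line lies to the right of the female line of the same transcript, and male means run from 50.9 to 82882.

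Together the 55 transcripts took 2.28% to 3.81% of all counts in male libraries (median 3.14%) and 0.065% to 0.479% in female libraries (median 0.226%). Male means had a median of 1255, and 31 transcripts had a male mean of 1000 or more, 19 lay between 100 and 1000, and 5 were under 100. The ratio of male to female mean had a median of 12.8 and ran from 8.27 to 450. It was under 16 in 35 transcripts, between 16 and 100 in 16, and 100 or more in 4. Over all 9734 transcripts with a male mean of at least 50 the median ratio was 1.04. Of these, 5.76% had every male library above every female library, and of 11641 transcripts tested with edgeR 33.4% were called higher in males. The rule used this contrast, so nothing is read from these shares. In bulk tissue, fewer cells of a type and less RNA per cell cannot be told apart.

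The choice of scaling moved the sizes of these ratios. With TMM scaling the 55 ratios ran from 8.61 to 463, and with scaling by total counts from 11.6 to 745. Total counts also moved the median log2 ratio over all transcripts from 0.05 to 0.63. Median-of-ratios scaling holds that median near 0 by its construction, so the value does not favour a scaling. Levels and ratios are given with the median-of-ratios scaling because the rule used it, while the tests below used TMM scaling.

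The 10 transcripts with the highest male means held most of these counts. They are ranked by count and not per transcript length, so the order is one of reads. AGAP003271-RA came first, with male values of 56908 at the lowest, 83743 at the median and 128551 at the highest, and female values of 3442, 9119 and 16454. Its means were 82882 ± 19076 (SD, n = 17) and 9429 ± 4042 (SD, n = 18), a ratio of 8.79. The lowest male library was therefore 3.46 times the highest female library. AGAP007160-RB had male values of 45583, 68665 and 98080 (lowest, median, highest) and female values of 3096, 8056 and 22337, a ratio of 8.27 and the smallest among the 55. A further isoform of that gene, AGAP007160-RD, also met the rule, with 6229, 9483 and 15459 in males and 396, 887 and 2312 in females.

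The next transcripts by male mean had high female values too. AGAP009594-RA had 9136, 17848 and 28905 in males (lowest, median, highest) and 630, 1839 and 4250 in females, and its ratio was 9.13. AGAP010142-RB had 12154, 17085 and 23593 in males and 879, 1992 and 4793 in females, a ratio of 8.61. AGAP029909-RC had 9377, 12683 and 20001 in males and 315, 1641 and 2826 in females, a ratio of 8.95. In these 3 transcripts the lowest male library was between 2.15 and 3.32 times the highest female library.

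AGAP008842-RA and AGAP008843-RA, whose identifiers are consecutive, were both among the 55. The former had 10747, 14909 and 18286 in males (lowest, median, highest) and 481, 1248 and 3237 in females. The latter had 5999, 7483 and 8987 in males and 262, 645 and 996 in females. The ratio was 11.6 for each. AGAP011296-RA was the most even of the 55 across male libraries, with 6132, 8177 and 9022 in males, a coefficient of variation of 11.6% (SD over mean), and 523, 702 and 933 in females.

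The largest ratios belonged mostly to transcripts of moderate male level that were at or near 0 in females. AGAP007979-RA had the largest, with male values of 469, 621 and 873 (lowest, median, highest). It was at 0 in 12 of 18 female libraries and its highest female value was 8.08. AGAP029221-RA had 267, 384 and 509 in males and was at 0 in 16 female libraries, with 15.8 and 3.85 in the other female libraries. AGAP009022-RA had 228, 362 and 716 in males, was at 0 in 13 female libraries and reached 12.9 in females. AGAP029375-RA, the lowest of the 55 by male mean, had 26.5, 51.4 and 73.3 in males and was at 0 in 17 of 18 female libraries.

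The female side of these ratios rested on few reads. AGAP007979-RA had 20 female reads against 14137 male reads, a pooled ratio of 481 with an exact 95% interval of 311 to 788. AGAP029221-RA had 17 female reads, for a pooled ratio of 329 (206 to 566), and AGAP009022-RA had 29, for 202 (140 to 301). AGAP029375-RA had 2 female reads in all, and its pooled ratio of 375 had an interval of 103 to 3098. These intervals treat reads as independent and leave out the spread between libraries, so the true uncertainty is wider. Most female reads of AGAP029221-RA, for example, came from ZT0 replicate 2 (normalised count 15.8). The intervals describe the reads and are no test, since the rule chose these transcripts by this contrast. No transcript of the 55 was at 0 in all female libraries, 17 were at 0 in at least 1 of them and 38 in none.

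Other transcripts combined a large ratio with a high male level. AGAP011462-RA had 11639, 15456 and 21946 in males (lowest, median, highest) and 129, 387 and 777 in females, a ratio of 40.6. AGAP011540-RA had 4194, 7260 and 10295 in males and 56.5, 156 and 268 in females, a ratio of 43.7. AGAP001429-RA had 5026, 6706 and 10844 in males and 102, 237 and 399 in females, a ratio of 29.6. In each the lowest male library was at least 12.6 times the highest female library. AGAP029439-RA was lower but as well separated, with 606, 726 and 985 in males and 6.10, 16.7 and 34.5 in females, a ratio of 42.3.

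For a pair of transcripts with a large ratio, single female libraries set the female mean. AGAP002936-RA had 6633, 12914 and 17094 in males (lowest, median, highest), and its female median was 5.94. Its female values reached 2393 in ZT12 replicate 1, 382 in ZT16 replicate 1, 196 in ZT20 replicate 1 and 77.1 in ZT0 replicate 2, and stood at 33.9 or less in the other female libraries. Its ratio of 72.9 is thus a mean over very unequal female libraries. AGAP008443-RB had 273, 560 and 1401 in males, was at 0 in 13 female libraries and reached 213 in female ZT16 replicate 1, which left its lowest male library only 1.28 times above the highest female library, the narrowest gap of the 55.

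The other 36 transcripts had male means from 73.4 to 5983 and ratios from 8.61 to 27.9. Across all 55, the lowest male library was a median of 3.32 times the highest female library, with a range of 1.28 to 58.0, and at least 2 times in 47. The median coefficient of variation was higher than over all transcripts with a male mean of at least 50, which include the 55. It was 25.1% in males (range 11.6% to 60.0%) against 18.7%, and 54.1% against 27.1% in females. The 2 sets were not matched for level, and the rule picks transcripts that are low in females.

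Values close to the limits of the rule were similar on both sides. Just inside the ratio of 8 lay AGAP007160-RB at 8.27, AGAP010142-RB at 8.61 and AGAP001568-RA at 8.61. Just outside lay AGAP012726-RA at 7.94, AGAP000988-RA at 7.85 and AGAP007662-RA at 7.83. At the limit on the male mean, AGAP029375-RA at 50.9 and AGAP004077-RA at 73.4 were inside, and AGAP012644-RA at 47.4 and AGAP009085-RA at 42.6 were outside. A further 6 transcripts met the limits on mean and ratio but had overlapping libraries.

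A gene can make several transcripts, or isoforms, and the rule was applied to transcripts. Of the 54 genes, 13 had a total of 22 other annotated isoforms, and 6 of these 22 had a lower mean in males than in females. Reads shared by isoforms or by similar genes were divided among them by the quantification, so the split within a gene is an estimate. A transcript chosen for its male excess holds a larger share of its gene in males wherever the other isoforms differ less between the sexes, as in 13 of 14 transcripts here, so these shares are a description with no test. Summed over isoforms, the ratio of male to female counts of these 13 genes ran from 2.32 to 13.6.

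**Figure D2:**
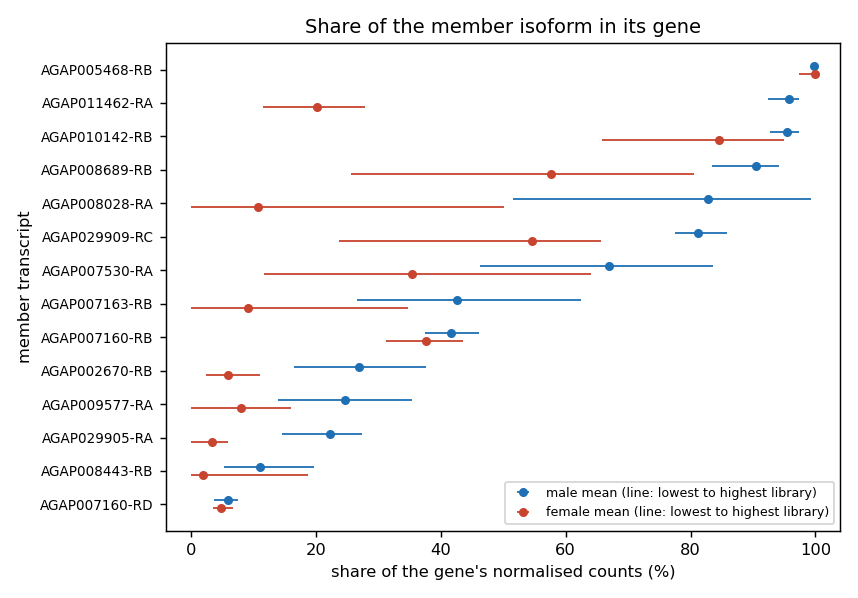
Share of the gene's normalised counts held by each of the 14 transcripts whose gene has other isoforms, as the mean (point) and lowest to highest library (line) in 17 male and 18 female libraries. AGAP011462-RA held 95.8% in males and 20.1% in females with no overlap between the sexes, while AGAP005468-RB held nearly all counts of its gene in both.

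AGAP011462 showed the sharpest split among genes with several isoforms. Its RA form held 95.8% ± 1.18 (SD, n = 17) of the gene's counts in males, with a range of 92.5% to 97.4%, and 20.1% ± 5.41 (SD, n = 18) in females, with a range of 11.5% to 27.9%. Its RB form moved the other way, with 403, 708 and 1032 in males (lowest, median, highest) and 489, 1734 and 2844 in females. The sexes overlapped for RB and were far apart for RA.

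AGAP008028 was similar but less even. Its RA form held 82.7% ± 14.0 (SD, n = 17) of the counts in males and 10.8% ± 14.8 (SD, n = 18) in females, with 51.5% as the lowest male share and 50.1% as the highest female share. Its RB and RC forms had lower means in males, 19.4 against 60.9 and 300 against 570. The whole gene had a ratio of 2.69 only, where the RA form alone had 21.3.

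In AGAP007160, the gene with 2 transcripts among the 55, the isoforms shared the male excess. RB held 41.7% of its counts in males and 37.6% in females, and RD 5.87% and 4.75%. Its RC form, with 60671, 94061 and 129048 in males (lowest, median, highest) and 4579, 12938 and 30217 in females, had a ratio of 6.83 and so fell short of the rule, and the RA form was near 0 in both sexes. In AGAP010142 the male excess was less evenly shared, with RB at 95.4% of the counts in males and 84.5% in females. Its RA form stood at 843 ± 342 (SD, n = 17) in males and 323 ± 146 (SD, n = 18) in females. That is a ratio of 2.61, against 8.61 for RB.

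Few of the 55 were called for time of day in males, and with few libraries per time the others may still vary. The test compared all 6 time points over the 17 male libraries with edgeR's quasi-likelihood test, adjusted over 12360 transcripts. It called 3 of 55 (adjusted p below 0.05), namely AGAP008892-RA, AGAP009616-RA and AGAP006118-RA, where 1.67% of all transcripts tested were called. DESeq2's likelihood ratio test called 9 of 55 against 5.17% of all, and these 9 included the same 3. An unadjusted p under 0.05 was found for 12 of 55 with edgeR, against 9.25% of all. By each of these counts the share was larger among the 55 than over all transcripts, and the sets were not matched for level.

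**Figure D3:**
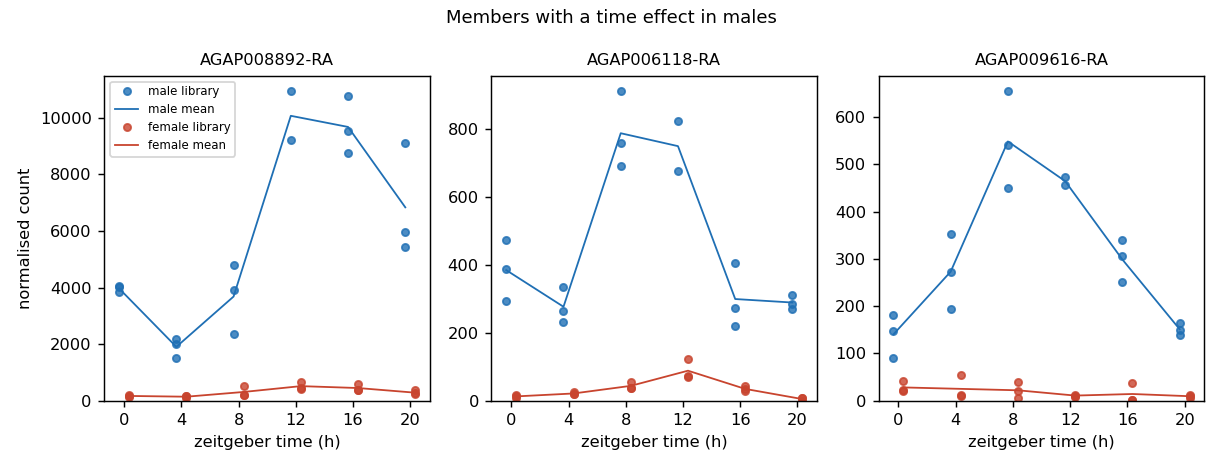
Normalised count of the 3 transcripts called for time in males against zeitgeber time, with every library as a point and a line through the means (3 libraries per sex and time, 2 for males at ZT12), both axes linear and the count axis from 0. AGAP008892-RA was high from ZT12 to ZT20 in males, AGAP006118-RA at ZT8 and ZT12, and AGAP009616-RA highest at ZT8, and female points stayed far below.

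AGAP008892-RA swung most strongly. Male normalised counts were 3836, 4057 and 4005 at ZT0, 1997, 2190 and 1516 at ZT4, 4789, 3902 and 2351 at ZT8, 9206 and 10941 at ZT12, 9522, 10768 and 8749 at ZT16, and 5437, 9108 and 5961 at ZT20. The ZT12 and ZT16 libraries did not overlap those of ZT0, ZT4 and ZT8, and the highest time mean (ZT12) was 5.30 times the lowest (ZT4). Time of day gave an adjusted p of 0.000609 (edgeR). In females the same transcript had its lowest value, 80.5, at ZT4 and its highest, 669, at ZT12.

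AGAP006118-RA was high before and at swarm time. Male values were 387, 293 and 472 at ZT0, 264, 334 and 230 at ZT4, 910, 691 and 759 at ZT8, 822 and 675 at ZT12, 272, 220 and 404 at ZT16, and 270, 284 and 311 at ZT20. All ZT8 and ZT12 libraries lay above all other male libraries (edgeR, adjusted p = 0.00217). Female values were 73.6, 68.0 and 122 at ZT12 and 56.1 or less at every other time.

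AGAP009616-RA rose through the light phase. Male values were 182, 147 and 91.1 at ZT0, 193, 352 and 273 at ZT4, 654, 540 and 450 at ZT8, 456 and 473 at ZT12, 305, 339 and 251 at ZT16, and 165, 149 and 139 at ZT20. The ZT8 and ZT12 libraries lay above all others, and the ZT8 mean was 3.91 times the ZT0 mean (edgeR, adjusted p = 0.00150). Female values had no such order, with 53.3 at most.

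The next transcripts by p-value did not pass the test. AGAP029879-RA had male values of 42.4, 48.8 and 67.7 at ZT0 and 145, 105 and 154 at ZT8, with an adjusted p of 0.0604 (edgeR). AGAP010142-RB had 12154, 13068 and 14396 at ZT0 and 23593 and 21917 at ZT12, with an adjusted p of 0.0872 (edgeR). Both passed with DESeq2 (adjusted p = 0.000125 and 9.73e-06).

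The time calls depended on the number of libraries. Without all replicates numbered 1, or all numbered 2, edgeR called none of the 55, and without those numbered 3 it called 2, while the calls over all transcripts fell from 206 to 11, 34 and 41. With any single male library left out, it still called the same 3, and up to 4 in all.

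Across the 55 transcripts the male time means were not spread evenly over the day. The highest mean fell at ZT12 for 20 transcripts, at ZT8 for 15, at ZT16 for 10, at ZT4 for 5, at ZT0 for 4 and at ZT20 for 1. Over all 9734 transcripts with a male mean of at least 50, ZT12 held the highest mean for 25.1% and ZT8 for 16.7%, against 36.4% and 27.3% here. ZT16 held it for 14.9% of all against 18.2% here, and ZT4 for 13.8% against 9.09%. For ZT0 the shares were 17.4% of all and 7.27% here, and for ZT20 12.0% and 1.82%. The lowest mean fell at ZT4 for 23 transcripts, 41.8% against 19.0% of all, and 1 of the 3 ZT4 libraries was among the 3 male libraries with the most opsin, whose part in this was not tested. ZT12 has 2 male libraries only, so its mean is less certain. Neither was high in opsin (ranks 17 and 12 of 17 males, counted from the most), and the part of this was likewise not tested. The highest time mean was a median of 1.5 times the lowest here and 1.35 times over all transcripts, and it was at least 2 times the lowest in 8 of the 55 (14.5% against 12.1%).

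Swarm time itself was compared with the mean of the other 5 times. In the 17 male libraries edgeR called 2 of 55, both higher at ZT12, where 0.922% of all 12360 transcripts were called in either direction and 0.68% as higher. AGAP008892-RA was higher by 1.15 ± 0.21 (log2 difference ± SE, adjusted p = 0.0126) and AGAP006118-RA by 0.99 ± 0.19 (adjusted p = 0.0208). AGAP009616-RA had a log2 difference of 0.89 ± 0.21 and did not pass (edgeR, adjusted p = 0.0695). DESeq2 called 6 of 55, all higher, against 2.73% of all transcripts. The log2 difference was above 0 for 37 of 55, with a median of 0.17 against -0.0041 over all transcripts tested. Counted from the most opsin, the male ZT12 libraries ranked 17 and 12 of 17, and this comparison had no opsin term. The part of the opsin level in this shift was not tested.

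The 2 calls at ZT12 rested on both male ZT12 libraries. Leaving out either male ZT12 library ended both calls. The adjusted p of AGAP008892-RA became 0.143 without replicate 1 and 0.118 without replicate 2, and that of AGAP006118-RA 0.581 and 0.0578 (edgeR, with the remaining ZT12 library assumed to vary like the other groups).

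The male excess was present at every time of day, as the rule requires. The median of the 55 ratios was 15.7 at ZT0, 12.8 at ZT4, 13.1 at ZT8, 12.7 at ZT12, 11.6 at ZT16 and 12.9 at ZT20. At ZT16, 39 of 55 had a ratio of at least 8, and at the other times between 48 and 51 did. Whether the time course differed between the sexes was tested as an interaction over 35 libraries. With edgeR 0 of 55 were called, against 0.00775% of 12898 transcripts, and 8 of 55 had an unadjusted p under 0.05, against 4.52% of all transcripts. DESeq2 called 5, against 0.636%, namely AGAP029221-RA, AGAP006118-RA, AGAP009022-RA, AGAP007163-RB and AGAP008028-RA. Of these, AGAP029221-RA, AGAP009022-RA and AGAP008028-RA were at 0 in at least 10 of 18 female libraries, and AGAP007163-RB in 8. With so many female libraries at 0, calls for these transcripts cannot show that the time courses of the sexes differ. AGAP006118-RA, at 0 in 1 female library, had the smallest p with edgeR (unadjusted 8.17e-05, adjusted 0.139).

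Most of the 55 transcripts had lower fitted counts in male libraries with more opsin. The summed normalised opsin counts ran up to 1691485 in males and from 1504185 in females, so the ranges of the sexes barely met. Within males, each transcript was fitted on the log2 opsin level together with time point. The slope was below 0 for 50 of 55 transcripts, against 53.9% of all 12360 tested, and the median slope was -0.13 per doubling of opsin against -0.01 over all. An unadjusted p under 0.05 was found for 29 of 55, all with slopes below 0, against 15.8% of all transcripts.

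After adjustment over all transcripts edgeR called 3 of 55, all falling, where 1.66% of all transcripts were called and 0.17% as falling. AGAP005468-RB had male values of 1879, 3344 and 5200 (lowest, median, highest) and a slope of -0.22 ± 0.05 (SE, adjusted p = 0.0367). AGAP003120-RA had 4268, 6103 and 8374 and a slope of -0.15 ± 0.03 (SE, adjusted p = 0.0480). AGAP007163-RB had 305, 501 and 814 and a slope of -0.31 ± 0.07 (SE, adjusted p = 0.0490). All are slopes in log2 count per doubling of opsin. DESeq2 called 16, all falling and including these 3, against 5.35% of all.

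These 3 calls lay close to the threshold and did not last. Leaving out any of 9 male libraries in turn ended all of them (ZT0 replicate 2, ZT4 replicates 1 and 3, ZT8 replicate 3, ZT16 replicates 1, 2 and 3, and ZT20 replicates 1 and 3). With the replicate number as a block none of the 3 was called (adjusted p = 0.0581, 0.0591 and 0.0596, edgeR), while 2 others were. Without the 3 male libraries with the most opsin, 0 of 55 were called with edgeR (0.147% of all), 7 had an unadjusted p under 0.05 (4.63% of all) and 41 of 55 slopes were still below 0 (46.8% of all), with a median of -0.08 against 0.01 over all transcripts.

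**Figure D4:**
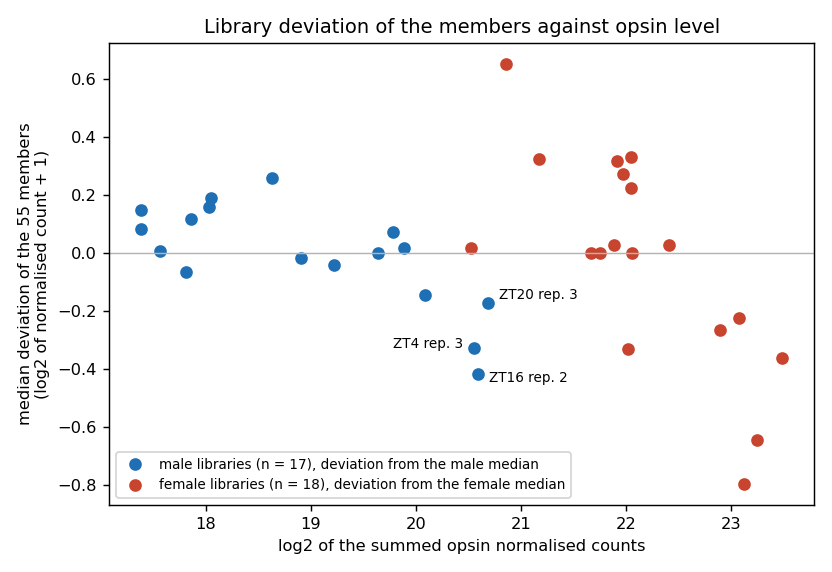
Median deviation of the 55 transcripts in each library from their medians within the same sex (log2 of normalised count + 1) against the log2 summed opsin count, for 17 male and 18 female libraries. The 3 male libraries with the most opsin lie between -0.17 and -0.42, and the 5 female libraries with the most opsin lie between -0.22 and -0.79.

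The 3 male libraries with the most opsin held the lowest male value of 36 of the 55 transcripts. Male ZT16 replicate 2 was lowest for 22, ZT4 replicate 3 for 10 and ZT20 replicate 3 for 4. Their median deviations from the male median were -0.42, -0.33 and -0.17 on the log2 scale. The median over all transcripts was 0 in each, but the median-of-ratios scaling holds it near 0 in every library. At the other end, male ZT8 replicate 3 held the highest value of 16 transcripts, with a deviation of 0.26. Male ZT16 replicate 2 also had an Orco count of 127, where the other male libraries had at most 18.6. The part that tissue other than the ear has in these deviations was not tested.

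Female libraries also deviated from each other. Female ZT12 replicate 3, with the next to lowest opsin level of the females, held the highest female value of 17 of the 55 transcripts and deviated by 0.65. The 5 female libraries with the most opsin (ZT20 replicate 2, ZT4 replicate 2, ZT0 replicate 3, ZT12 replicate 2 and ZT8 replicate 3) deviated by -0.36, -0.64, -0.79, -0.22 and -0.26, and female ZT0 replicate 1, the tenth by opsin level, deviated by -0.33. Female ZT12 replicate 1, with the least opsin of the females, deviated by 0.02 only. It was the single female library whose opsin level fell within the male range, and the 3 male libraries with the most opsin were the only ones within the female range. Between those 3 male libraries and that 1 female library the median ratio of the 55 transcripts was 10.5 and the smallest 2.68. In this median the 9 transcripts at 0 in the female library counted as above all other ratios. The rule places every male library above every female library, so a male excess here was fixed in advance and tests nothing about opsin.

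The discarded male ZT12 library did not look like the others. The authors gave low quality as their reason, because mechanosensory genes that are usually high in Johnston's organ had very low levels in it. It detected 10323 transcripts and had a size factor of 0.320, below the 0.519 to 1.54 of the 35 libraries used. Of the 55 transcripts, 20 lay above every other male library, 7 within the male range, 10 between the sexes and 18 at or below the highest female library. With total counts in place of the size factor these became 10, 6, 13 and 26. The spread was as wide for other transcripts, since 36.4% lay above all males and 50.1% below the lowest male over all 9734 transcripts, against 36.4% and 50.9% of the 55.

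**Figure D5:**
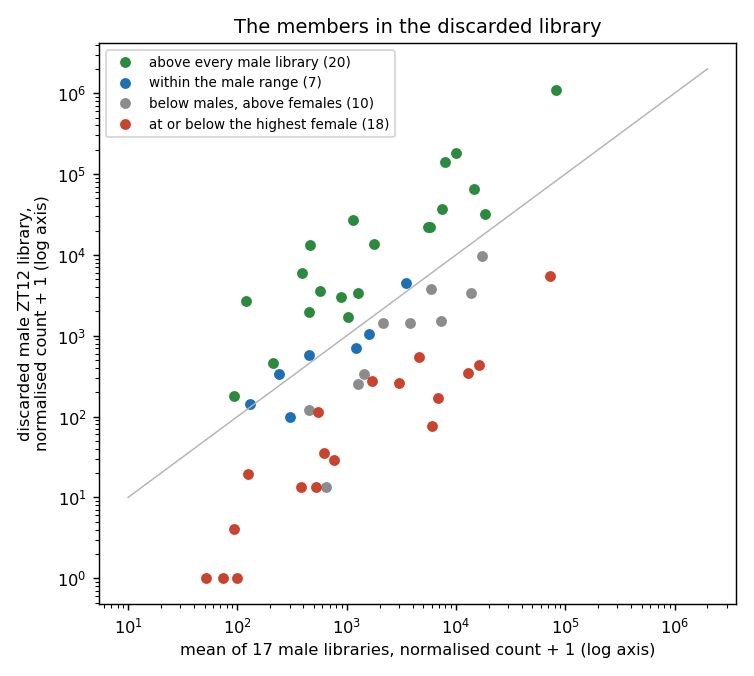
Normalised count + 1 of each of the 55 transcripts in the discarded male ZT12 library against the mean of the 17 other male libraries, both on log axes, coloured by its place among the male and female libraries. The diagonal marks equal values. The 20 transcripts above every male library lie above the diagonal and the 18 at or below the highest female library lie below it, as their grouping requires.

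Single transcripts in that library went to either extreme. AGAP003271-RA stood at 1105319, 13.3 times the male mean, and AGAP011296-RA at 140008, 17.6 times the male mean. AGAP011462-RA stood at 428, within the female range and 0.0262 times the male mean, and AGAP010786-RA at 74.9, below every female library. The isoforms of AGAP007160 parted, with RD at 184220 and RB at 5471, where the other male libraries had means of 10044 and 71895. AGAP010004-RA, AGAP004077-RA and AGAP029375-RA were at 0.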

How the data were processed

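RNA of pooled second antennal segments of Anopheles gambiae (36 libraries) was sequenced by the authors. They checked read quality with FastQC 0.11.9 and MultiQC 1.10 and estimated counts per annotated transcript with Kallisto 0.46.0 on the VectorBase release 53 transcripts. The deposited values are these estimated counts, neither normalised nor pooled, and their decimals were rounded to whole numbers here. Reads shared by isoforms or similar genes had been divided among them by Kallisto.

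The 55 transcripts and all lists (8 opsin genes) were chosen with earlier results of these data known. Counts were divided by median-of-ratios size factors of DESeq2 1.42.0 over 35 libraries. Library deviations used log2 of normalised count + 1.

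Tests ran on all transcripts left by edgeR's low-count filter with the quasi-likelihood test of edgeR 4.0.16 (R 4.3.3, TMM scaling) and were adjusted by Benjamini-Hochberg over all transcripts tested, with 0.05 as the threshold. The scripts were tested on simulated data. Time and ZT12 used 17 male libraries, the opsin slope added time point, and the interaction used 35 libraries. The series' design text calls the replicates biological, from repeated collections, and p-values measure the spread between these pools. No pair of libraries within a group agreed within counting noise (34 pairs, lowest chi-square per degree of freedom 42.3).

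Named transcripts are the 10 highest by male mean, the 10 highest by ratio, those with the smallest p (5 for time, 3 each for ZT12 and opsin), neighbours of the limits and the isoforms of the highest genes. AGAP008843, AGAP008028, AGAP010786, AGAP010004, AGAP011441, AGAP002441 and AGAP028097 were added after their values were seen. Names, positions and sequences were not used here, since 0 of the identifiers appear in the reference table. Alternatives were other scaling, no low-count filter, DESeq2, a replicate block, other limits, the discarded library kept, and libraries left out.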

Additional observations from a re-analysis of the deposited data

Results flagged for a closer look

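The discarded male ZT12 library, left out by the authors for low quality, entered none of the main comparisons. In it 20 of the 55 transcripts (36.4%) stood above every other male library, the same share as over all transcripts with a male mean of at least 50 (36.4%). The furthest were AGAP011441-RA at 28.7 times the male mean, AGAP002441-RA at 23.6 times and AGAP028097-RA at 22.9 times. With total counts 10 of the 20 remained above every other male library.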

How the results depend on the processing

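The number of transcripts that met the rule was 55, and between 47 and 62 with TMM scaling, a male mean of 10 or 200, overlap allowed or the discarded library kept (59, of which 37 were among the 55), and 43 with counts summed per gene. It was 103 with total counts, 165 with a ratio of 4 and 20 with a ratio of 16. Leaving out replicate 1, 2 or 3 of every group gave 59 to 63. The 3 time calls became 9 with DESeq2, 2 with the discarded library, which lost AGAP009616-RA (adjusted p = 0.161, edgeR), and 0 to 4 when libraries were left out. The 2 calls at ZT12 became 6 with DESeq2, 14 with the discarded library (18.5% of all transcripts tested) and 0 to 3 when libraries were left out. The 3 opsin calls became 1 with DESeq2 size factors, 1 without the low-count filter, 13 with total counts, 16 with DESeq2, 0 with the discarded library and 0 to 4 when libraries were left out, and 0 without the 3 male libraries with the most opsin. The interaction went from 0 to 5 with DESeq2. No named log2 difference or slope changed sign under the alternatives run. Each male library left out in turn, and the 3 with the most opsin together, were alternatives chosen after seeing the data.

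Any pairing of the libraries by replicate number was weak. Deviations of same-numbered libraries had correlations of -0.30 to 0.47 (males, mean 0.063) and -0.49 to 0.52 (females, mean 0.028). Between different numbers the means were -0.031 and -0.014. Of 3 possible numbers, 9 of 17 male and 8 of 18 female libraries correlated best with their own. With the replicate number as a block, edgeR called 3 of 55 for time (250 of all transcripts against 206), 2 for ZT12, 2 for the opsin level, none of them among the 3 called without it, and 0 for the interaction.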
